A study of Homo sapiens with 38 samples.

Results

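Heterozygous loss of USP7 was followed after neural differentiation of SH-SY5Y, an established human neuroblastoma line whose cells extend neurites in retinoic acid. The comparison used 4 of the 38 libraries of the series, chosen by the genotype and treatment labels: 2 of wild-type and 2 of USP7_heterozygous cells, all labelled Neural_differentiation. Per the labels' protocol, neural cells were kept for 10 days in a differentiation medium with 10 µM retinoic acid. Wild-type and heterozygous undifferentiated cells, 2 libraries each, were deposited in the same set of values. Another deposited set, of 3 libraries a group, held 3 comparisons placed beside this one. The first was neural double-knockout (p53 and USP7) against p53-knockout cells. The others were neural wild-type cells with the USP7 inhibitor FT671 against DMSO, and neural against undifferentiated wild-type cells. The labels give no number of clones for the heterozygous line, so the genotype and the history of the line cannot be told apart. Nothing states that the libraries of a group came from separate cultures, and p-values measure the spread between these libraries, which may be technical.

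USP7 is a deubiquitinase, an enzyme that removes ubiquitin from proteins and so keeps many of them from being degraded. It acts on MDM2, the ubiquitin ligase of p53, and is found with the noncanonical Polycomb complex ncPRC1.1, in which BCOR, PCGF1 and KDM2B accompany the RING ligases that ubiquitinate histone H2A. Heterozygous loss of USP7 in people causes Hao-Fountain syndrome, a neurodevelopmental disorder.

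Each of the 4 neural libraries held between 16149022 and 16940325 reads in genes, and levels below are normalized read counts. Differences are log2 of heterozygous over wild type, on the log2(normalized count + 1) scale, ± SE from limma, with p-values adjusted over 14820 genes by the Benjamini-Hochberg method and a call at an adjusted p below 0.05. Across genes, log2 levels of libraries of the same genotype correlated at 0.995 to 0.996, and those of different genotypes at 0.981.

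The cells carried the markers of the labelled type. Of 9 noradrenergic neuroblastoma markers 8 were measured (TH was not in the table). Their summed level was 96389 to 97899 in wild-type and 102614 to 105533 in heterozygous neural libraries. Abundant genes weigh most in such sums, and of these 8 markers 2 were called higher and 2 lower. All 7 markers of neural differentiation were measured and summed to 145043 to 150282 in wild-type and 127599 to 127713 in heterozygous neural libraries, against at most 23469 in any undifferentiated library. Of these 7, RARB, STMN2, GAP43 and MAPT were lower in heterozygotes (MAPT lost its call in 3 of the 4 fits without 1 neural library, with an adjusted p of 0.0754 to 0.129), and CYP26B1, NTRK2 and RET did not pass the test. CYP26B1 and NTRK2 were called lower with the neural groups alone, edgeR or DESeq2 (adjusted p 2.54e-12 to 9.55e-08 for CYP26B1 and 0.0021 to 0.0446 for NTRK2). The 4 fibroblast markers DCN, LUM, PDGFRA and FAP summed to 1857 to 1901 in wild-type and 2157 to 2357 in heterozygous libraries. None of the 4 endothelial markers was in the table, of the 4 blood markers CD14 alone was in it, at 35.1 or less, and of the 4 muscle markers MYH3 alone, at 60.4 to 95.8.

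The second heterozygous neural library stood apart in transcripts of brain glia. MBP, a protein of myelin, was 94.5 and 122 in wild-type and 61.8 and 1288 in heterozygous libraries. GFAP, an intermediate filament of astrocytes, was 92.5 and 89.0 in wild-type and 48.9 and 881 in heterozygous libraries. These and the glial transcripts MOBP and PTGDS were among 5 genes at least 3-fold above each other neural library at a level of 30 or more in it, and the other 3 neural libraries held no such gene. The 10 measured members of the glial list summed to 1447 and 1443 in wild-type and to 2044 and 4343 in heterozygous neural libraries, and the defining markers SOX10 and CDH19 were not in the table. MBP, GFAP, MOBP and PTGDS were not called (adjusted p 0.481 to 0.758). The neural difference between genotypes and its difference between the states were refitted without this library, and the gene lists were recounted. These recounts are given below for part of the lists only. Overlaps with other comparisons, classes by wild-type differentiation, calls shared by the states, counts of large changes and the imprinted list were not recomputed. The part of this library's glial transcripts in the results below was not tested.

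**Figure D1:**
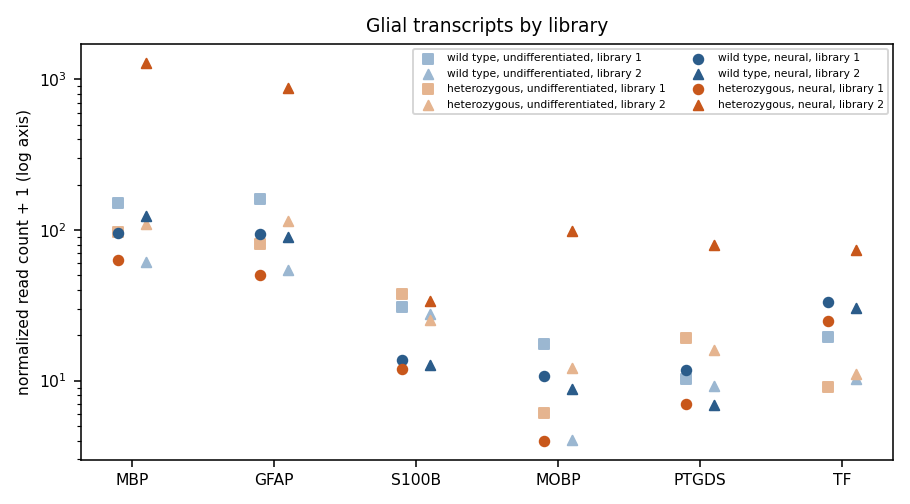
Normalized read counts (plus 1, log axis) of 6 glial transcripts in the 8 libraries of the heterozygote set, 1 point per library. MBP reached 1288 and GFAP 881 in the second heterozygous neural library, the highest of the 8 libraries for each.

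USP7 transcripts were lower in both heterozygous libraries. USP7 was 2917 and 2978 in wild-type and 1835 and 1833 in heterozygous libraries (log2 -0.68 ± 0.04, adjusted p = 2.08e-11). In undifferentiated cells it was 3188 and 3156 in wild-type and 1878 and 1854 in heterozygous libraries (log2 -0.77 ± 0.04, adjusted p = 3.58e-12), and the difference between the states was not called (adjusted p = 0.406). Heterozygous neural cells thus held 62.2% of the wild-type level of the transcript. With bulk RNA, fewer cells of a kind and less RNA per cell cannot be told apart. For comparison, the log2 difference of USP7 was -2.11 ± 0.09 in the double knockout and -0.34 ± 0.09 with FT671.

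Among the partners of USP7, BCOR was lower, at 4259 and 3975 in wild-type and 3446 and 3397 in heterozygous libraries (log2 -0.27 ± 0.04, adjusted p = 5.37e-05). KDM2B, the subunit that brings ncPRC1.1 to CpG islands, was 1268 and 1219.5 in wild-type and 1413 and 1374 in heterozygous libraries (log2 0.16 ± 0.05, adjusted p = 0.0231), a call lost in 3 of the 4 fits without 1 neural library (adjusted p 0.0534 to 0.158). PCGF1, the Polycomb RING finger subunit, was 395 and 377 in wild-type and 395 and 392 in heterozygous libraries and was not called (adjusted p = 0.85). In all, 1 of 10 measured ncPRC1.1 subunits rose and 1 fell, against 21.3% of all genes called in either direction. MDM2 was 877 and 898 in wild-type and 891 and 845 in heterozygous libraries and was not called (adjusted p = 0.757). MDM2 and PCGF1 were named after their values were seen.

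Of 32 substrates and partners of USP7, 5 rose and 8 fell (40.6% called, against 21.3% of all genes). FOXO3, a forkhead transcription factor, was 3222 and 3091 in wild-type and 1835 and 1768 in heterozygous libraries (log2 -0.81 ± 0.05, adjusted p = 5.10e-12). MAGED1, a p75 neurotrophin receptor adaptor, was 8803 and 8682 in wild-type and 6222 and 6518 in heterozygous libraries (log2 -0.46 ± 0.04, adjusted p = 7.92e-09). NOTCH1, a receptor of cell fate decisions, was 27.3 and 23.5 in wild-type and 85.8 and 86.1 in heterozygous libraries (log2 1.72 ± 0.14, adjusted p = 2.80e-09). Without the second heterozygous library 3 rose and 5 fell.

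In neural cells 3151 of 14820 genes were called different between the genotypes, 21.3% of those tested. Of these, 1417 were higher (9.56% of those tested) and 1734 lower (11.7%) in heterozygotes. At least 2-fold changes were fewer, with 148 genes higher and 245 lower. In 58.7% of genes both heterozygous libraries lay outside the range of the wild-type ones. Without the second heterozygous library 2318 genes were called, and 1947 without the first.

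Among called genes with a mean level of 100 or more and groups that do not overlap, a condition of the choice, the 12 largest falls and the 12 largest rises are described next. NNAT, an imprinted gene for a proteolipid of developing neurons, was 1386 and 1295 in wild-type and 31.9 and 38.7 in heterozygous libraries (log2 -5.21 ± 0.11, adjusted p = 1.09e-20). ASTN1, an adhesion protein of migrating neurons in mice, was 251 and 264 in wild-type and 11.0 and 16.4 in heterozygous libraries (log2 -4.16 ± 0.41, adjusted p = 5.07e-07). BASP1, a protein of growth cone membranes, was 1261 and 1263 in wild-type and 62.8 and 77.4 in heterozygous libraries (log2 -4.16 ± 0.20, adjusted p = 2.20e-10). These are the 3 largest of those falls.

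Others of the 12 falls follow. GRIK5, a kainate receptor subunit, was 1048 and 1106 in wild-type and 114 and 96.7 in heterozygous libraries (log2 -3.35 ± 0.14, adjusted p = 1.13e-14). ELFN1, a postsynaptic protein that binds metabotropic glutamate receptors, was 2229.6 and 1934 in wild-type and 179 and 182 in heterozygous libraries (log2 -3.52 ± 0.29, adjusted p = 1.66e-09). TNR, which encodes the matrix protein tenascin-R, was 387 and 313 in wild-type and 36.9 and 36.8 in heterozygous libraries (log2 -3.21 ± 0.28, adjusted p = 7.00e-09). ELFN1 and TNR varied more between the wild-type libraries than GRIK5 did. CUX2, a homeobox factor of cortical neurons, fell by 2.54 on the log2 scale, SEZ6L by 3.14, B3GAT1, which makes the HNK-1 carbohydrate, by 3.15, and VAT1L by 3.96. ENPP2, which encodes the lipid phosphodiesterase autotaxin, fell by 2.42, and the gene ENSG00000167383, listed without a name, by 3.57.

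Of the 12 rises, that of IL17RA was the largest on the log2 scale. IL17RA, the receptor for interleukin 17, was 16.6 and 14.7 in wild-type and 218 and 219.6 in heterozygous libraries (log2 3.73 ± 0.18, adjusted p = 1.81e-13). H19, an imprinted noncoding RNA, was 7981 and 8428 in wild-type and 38797 and 38585 in heterozygous libraries (log2 2.24 ± 0.04, adjusted p = 1.09e-20), the most abundant of the 12 genes with the largest rises. INSM1, a zinc finger factor of neuroendocrine cells, was 144 and 147 in wild-type and 552 and 483 in heterozygous libraries (log2 1.82 ± 0.33, adjusted p = 2.46e-04). NR5A2, an orphan nuclear receptor, was 125 and 109 in wild-type and 499.7 and 473 in heterozygous libraries (log2 2.05 ± 0.34, adjusted p = 8.97e-05). NR5A2 and INSM1 were at 0 reads in all 4 undifferentiated libraries. COL5A1, a chain of fibrillar collagen, was 215 and 243 in wild-type and 769 and 801 in heterozygous libraries (log2 1.78 ± 0.07, adjusted p = 4.62e-15).

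Others of the 12 largest rises were LPP, a LIM protein of focal adhesions (log2 2.10 ± 0.14), NGFR, the low-affinity neurotrophin receptor (1.69 ± 0.16), NGEF, a guanine nucleotide exchange factor (1.92 ± 0.21), AASS, an enzyme of lysine breakdown (1.87 ± 0.09), WFIKKN2 (2.27 ± 0.34) and IGFBP6, an insulin-like growth factor binding protein (1.57 ± 0.13). NGEF varied most between libraries, at 419.9 and 275 in heterozygotes. FMNL1-DT, a transcript divergent from FMNL1, rose by log2 1.94 ± 0.45, but its adjusted p was 0.0764 without the first and 0.0519 without the second heterozygous library. The labels do not say whether reads were counted by strand.

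**Figure D2:**
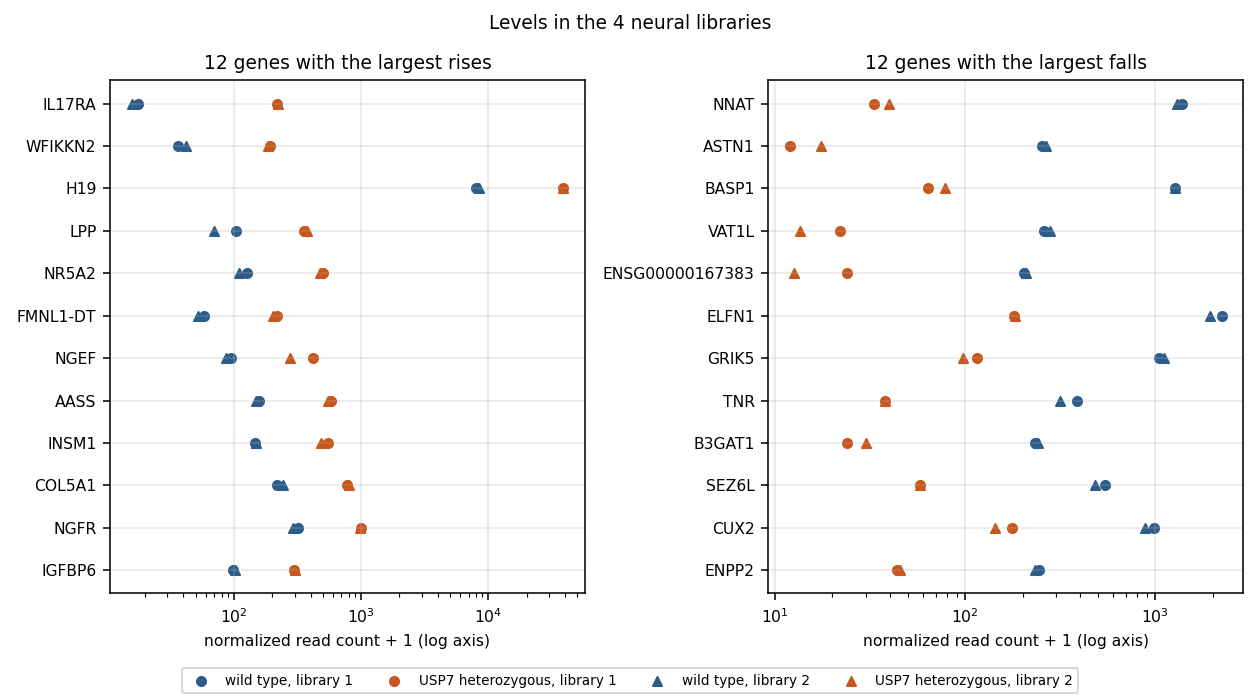
Normalized read counts (plus 1, log axis) of the 12 largest rises and 12 largest falls among called genes whose mean level reached 100, 1 point per library. No heterozygous library overlaps a wild-type one, which the choice of genes required.

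Promoter sequences are shown for genes at both ends of the range that have a single window in the RefSeq table (GRCh38.p14), from 250 bases before to 50 after the start. The capitals mark CG dinucleotides, the target of DNA methylation and the letters that KDM2B binds when unmethylated. ASTN1 lies at chr1:177164663-177164962 (minus strand), BASP1 at chr5:17216573-17216872 (plus strand), VAT1L at chr16:77788314-77788613 (plus strand), H19 at chr11:2001217-2001516 (minus strand), AASS at chr7:122144200-122144499 (minus strand) and FMNL1-DT at chr17:45221716-45222015 (minus strand). ASTN1, BASP1 and VAT1L are from the falls and H19, AASS and FMNL1-DT from the rises. The windows are read along the strand of each gene.
ASTN1: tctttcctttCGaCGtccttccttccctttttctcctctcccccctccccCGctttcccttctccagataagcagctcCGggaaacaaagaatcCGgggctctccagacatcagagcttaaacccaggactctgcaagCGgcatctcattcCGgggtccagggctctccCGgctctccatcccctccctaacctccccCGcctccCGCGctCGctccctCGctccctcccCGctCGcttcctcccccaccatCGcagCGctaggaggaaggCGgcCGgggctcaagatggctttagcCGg
BASP1: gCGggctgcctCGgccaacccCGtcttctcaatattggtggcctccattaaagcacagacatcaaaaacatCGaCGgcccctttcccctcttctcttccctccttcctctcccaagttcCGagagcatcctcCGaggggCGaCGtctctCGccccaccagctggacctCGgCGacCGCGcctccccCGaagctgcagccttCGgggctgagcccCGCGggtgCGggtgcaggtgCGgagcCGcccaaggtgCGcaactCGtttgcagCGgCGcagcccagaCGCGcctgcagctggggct
VAT1L: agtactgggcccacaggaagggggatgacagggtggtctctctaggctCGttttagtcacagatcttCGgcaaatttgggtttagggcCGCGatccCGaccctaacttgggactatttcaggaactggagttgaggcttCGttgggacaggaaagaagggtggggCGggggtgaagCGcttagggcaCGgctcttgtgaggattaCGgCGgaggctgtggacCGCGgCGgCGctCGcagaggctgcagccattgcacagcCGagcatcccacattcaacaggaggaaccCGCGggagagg
H19: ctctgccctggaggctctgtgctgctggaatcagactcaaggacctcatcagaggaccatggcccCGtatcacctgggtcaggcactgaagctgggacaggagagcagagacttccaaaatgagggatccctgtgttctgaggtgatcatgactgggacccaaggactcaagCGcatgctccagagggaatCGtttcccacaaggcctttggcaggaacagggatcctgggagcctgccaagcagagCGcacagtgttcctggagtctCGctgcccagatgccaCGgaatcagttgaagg
AASS: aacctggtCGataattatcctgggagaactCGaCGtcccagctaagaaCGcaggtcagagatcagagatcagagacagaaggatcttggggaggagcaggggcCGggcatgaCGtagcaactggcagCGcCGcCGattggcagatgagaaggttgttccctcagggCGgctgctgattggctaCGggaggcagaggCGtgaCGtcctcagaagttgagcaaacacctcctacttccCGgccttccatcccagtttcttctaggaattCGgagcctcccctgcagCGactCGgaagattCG
FMNL1-DT: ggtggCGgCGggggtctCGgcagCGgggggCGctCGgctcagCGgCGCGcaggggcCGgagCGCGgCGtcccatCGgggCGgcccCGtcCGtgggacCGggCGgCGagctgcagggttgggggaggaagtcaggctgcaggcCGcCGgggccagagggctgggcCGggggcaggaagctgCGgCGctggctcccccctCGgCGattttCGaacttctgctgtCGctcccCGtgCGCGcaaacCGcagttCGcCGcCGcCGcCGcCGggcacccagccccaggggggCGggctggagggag
These windows held 20, 27, 19, 6, 18 and 40 CG dinucleotides in the same order. None held 2 copies of AGGTCA or AGTTCA (letters bound by nuclear receptors) in the same direction 5 bases apart on either strand. Retinoic acid receptors bind at that spacing. Only 7 of the 35116 windows of the table (0.02%) hold such a pair. Finding none here was therefore nearly certain beforehand and cannot show that sites for retinoic acid receptors are absent. The search covered these letters and this spacing only. A comparison of promoters between the groups of genes is void, because 78.3% of the genes that rose, 74.9% of those that fell and 73.9% of all genes tested had a window, under the 80% required.

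Genes of neuronal structure fell more often than they rose. Of 33 measured genes of the neuronal cytoskeleton and axon growth, 19 fell and 1 rose (median log2 -0.26, against 0.00 over all genes), and without the second heterozygous library 18 fell and 1 rose. DCX, a microtubule protein of young neurons, was 5905 and 5569 in wild-type and 2762 and 2891 in heterozygous libraries (log2 -1.02 ± 0.05, adjusted p = 8.47e-13). NEFM, a neurofilament subunit, was 1962 and 1770.1 in wild-type and 710.2 and 778 in heterozygous libraries (log2 -1.32 ± 0.06, adjusted p = 5.29e-13). KIF1A, a kinesin that carries synaptic vesicle precursors, was 6190.1 and 5801 in wild-type and 3157 and 2982 in heterozygous libraries (log2 -0.97 ± 0.05, adjusted p = 5.64e-13). Heterozygous libraries lay below both wild-type ones for each gene, which were picked from the list by small adjusted p. In 58.7% of all genes the genotypes did not overlap. Of the 33 genes 60.6% were called, against 21.3% of all genes. The fall was also present in undifferentiated heterozygotes, where 21 of the 33 fell and 2 rose (median log2 -0.25). There 14.1% of all genes fell. The difference between the states was called for 9 of the 33 as higher and 7 as lower in neural cells.

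Synaptic genes followed the same direction. Of 35 measured, 18 fell and 1 rose (median log2 -0.21), and 16 fell without the second heterozygous library. CPLX2, a complexin that clamps vesicle fusion, was 2806 and 2776 in wild-type and 821 and 748 in heterozygous libraries (log2 -1.83 ± 0.06, adjusted p = 5.21e-16). DLG2, a postsynaptic scaffold, was 2101 and 2081 in wild-type and 734 and 762 in heterozygous libraries (log2 -1.48 ± 0.12, adjusted p = 1.12e-09). NRXN2, a presynaptic adhesion protein, was 857 and 797 in wild-type and 365 and 400.5 in heterozygous libraries (log2 -1.11 ± 0.09, adjusted p = 3.48e-09). The 3 genes did not overlap between genotypes, which their choice by small adjusted p made likely, and neither did 58.7% of all genes. Of the 35 genes 54.3% were called, against 21.3% of all genes. In undifferentiated heterozygotes 18 of the 35 synaptic genes fell and 4 rose (median log2 -0.24).

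Channels and receptors were lower in part. Of 30 voltage-gated and related channel genes 13 fell and 1 rose (median log2 -0.18). That is 46.7% called, against 21.3% of all genes. KCNQ3, a subunit of the M current, was 52.6 and 50.9 in wild-type and 3.99 and 1.93 in heterozygous libraries (log2 -3.78 ± 0.43, adjusted p = 4.08e-07). SCN3B, a sodium channel beta subunit, was 1840.0 and 1941 in wild-type and 1334 and 1288 in heterozygous libraries (log2 -0.53 ± 0.06, adjusted p = 1.37e-06). Of 29 neurotransmitter receptors 12 fell and 3 rose (median log2 -0.29, 51.7% called). DRD2, a dopamine receptor, fell by 1.38 on the log2 scale, and CHRM3, a muscarinic receptor, by 1.45. Of 22 neuropeptides and their receptors 11 fell and 6 rose (77.3% called). NPY, a peptide of sympathetic neurons, was 602 and 553 in wild-type and 1014 and 1099.9 in heterozygous libraries (log2 0.87 ± 0.05, adjusted p = 4.83e-12). VGF, a precursor of secreted peptides, was 8212 and 7852 in wild-type and 5191 and 5533 in heterozygous libraries (log2 -0.58 ± 0.05, adjusted p = 1.36e-08). The 2 genes, picked by small adjusted p, moved in opposite directions. In undifferentiated heterozygotes 10 of the 30 channel genes fell and 5 rose (median log2 -0.18). Of the neurotransmitter receptors there 8 fell and 7 rose (median log2 0.13), and of the neuropeptides and their receptors 7 fell and 7 rose.

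Guidance and adhesion families were mixed. Of 38 axon guidance genes 7 rose and 7 fell (36.8% called), and of 32 protocadherins 28.1% were called, against 21.3% of all genes. EPHB2, an ephrin receptor, was 2456 and 2405 in wild-type and 4409 and 4285 in heterozygous libraries (log2 0.84 ± 0.05, adjusted p = 2.23e-12). PLXND1, a semaphorin receptor, was 127 and 113 in wild-type and 287 and 315 in heterozygous libraries (log2 1.32 ± 0.09, adjusted p = 5.23e-11). UNC5B, a netrin receptor, was 2192 and 2066 in wild-type and 1659 and 1721 in heterozygous libraries (log2 -0.33 ± 0.04, adjusted p = 1.88e-06). EPHB2 and PLXND1 were higher and UNC5B lower in both heterozygous libraries, and all were picked by small adjusted p. Of 32 protocadherins 7 fell and 2 rose, but 3 fell and 1 rose without the second heterozygous library. PCDHB2 was 162 and 178 in wild-type and 11.0 and 2.90 in heterozygous libraries, a value that is uncertain because members of this cluster have near-identical sequences.

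Genes that respond to retinoic acid did not move one way, with 6 of 25 higher and 5 lower (44% called, against 21.3% of all genes). DLK1, an imprinted NOTCH-like ligand, was 4871 and 4949.5 in wild-type and 13019 and 12803 in heterozygous libraries (log2 1.39 ± 0.04, adjusted p = 3.03e-18). CRABP1, a carrier of retinoic acid, was 1849 and 1911 in wild-type and 963 and 940.3 in heterozygous libraries (log2 -0.98 ± 0.06, adjusted p = 3.78e-12). BCL2, which inhibits apoptosis, was 1346 and 1286 in wild-type and 613 and 633 in heterozygous libraries (log2 -1.08 ± 0.06, adjusted p = 3.58e-12). CYP26B1, which degrades retinoic acid, was 70080.2 and 67103 in wild-type and 54829 and 53886 in heterozygous libraries, lower in both heterozygous libraries by log2 -0.34 ± 0.32 but not called (adjusted p = 0.559), except in the other fits given above. Of 18 HOX genes 6 fell and 1 rose (median log2 -0.35, 38.9% called). The 1 that rose was HOXA13, by log2 3.70 in the fit without the second heterozygous library. HOXC9 was 285 and 285 in wild-type and 183 and 185 in heterozygous libraries (log2 -0.63 ± 0.10, adjusted p = 5.99e-05). HOXB8 was 68.2 and 54.8 in wild-type and 0 and 1.93 in heterozygous libraries, and no fold is given at so few reads.

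Genes sorted by their change in wild-type differentiation, in libraries of the other set, differed in their counts. Of 1616 genes that rose at least 2-fold there, 162 were higher (10.0%) and 411 lower (25.4%) in neural heterozygotes, with a median log2 of -0.07. Of 1114 that fell at least 2-fold, 246 were higher (22.1%) and 194 lower (17.4%), with a median of 0.03. Over all 13951 genes in both tables, 9.86% were higher and 12.1% lower. Differentiation of wild-type cells called 65.7% of the genes tested there.

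Noradrenergic and mesenchymal genes are the poles along which neuroblastoma cells vary. Of 31 noradrenergic genes 9 rose and 13 fell (71.0% called), and of 32 mesenchymal genes 65.6% were called, against 21.3% of all genes. ISL1, a homeobox factor of sympathetic neurons, was 4411 and 4644 in wild-type and 2879.7 and 2908 in heterozygous libraries (log2 -0.65 ± 0.04, adjusted p = 3.55e-11). DBH, which makes noradrenaline, was 12194 and 11779.7 in wild-type and 8079.6 and 8449 in heterozygous libraries (log2 -0.54 ± 0.04, adjusted p = 9.30e-11). CHGA, a granin of secretory granules, was 33300.0 and 33835 in wild-type and 41332 and 41513 in heterozygous libraries (log2 0.30 ± 0.04, adjusted p = 1.56e-06). HAND2 and GATA3 were not called, with adjusted p of 0.391 and 0.155. Of 32 mesenchymal genes 14 rose and 7 fell (median log2 0.17), and 11 rose and 6 fell without the second heterozygous library. SPARC, a matrix glycoprotein, was 2160.4 and 2052 in wild-type and 4109 and 4389 in heterozygous libraries (log2 1.01 ± 0.05, adjusted p = 4.53e-14). PDGFRB, a receptor of platelet-derived growth factor, was 595 and 567 in wild-type and 919 and 1016 in heterozygous libraries (log2 0.73 ± 0.06, adjusted p = 1.15e-09).

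Extracellular matrix genes moved both ways, with 17 of 41 higher and 11 lower (68.3% called, against 21.3% of all genes). COL3A1, a fibrillar collagen chain, was 39777 and 37309 in wild-type and 60343 and 59751 in heterozygous libraries (log2 0.64 ± 0.04, adjusted p = 5.29e-12). The basement membrane collagens, which lie side by side in the genome, went the other way. COL4A1 was 382 and 369 in wild-type and 84.8 and 98.7 in heterozygous libraries (log2 -2.02 ± 0.08, adjusted p = 2.42e-15). COL4A2 was 1198 and 1187 in wild-type and 368 and 335 in heterozygous libraries (log2 -1.76 ± 0.06, adjusted p = 1.60e-16). Of the 4 fibroblast markers, whose sums are given above, 2 were called higher and 1 lower, and their part in the result was not tested.

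Among cell cycle genes, those of mitosis were lower by small amounts. Of 40 genes of G2 and mitosis 18 fell and 0 rose (median log2 -0.15), and 15 fell without the second heterozygous library. BIRC5, which encodes survivin, was 881 and 819.5 in wild-type and 664 and 659 in heterozygous libraries (log2 -0.36 ± 0.05, adjusted p = 2.01e-05). MKI67 was 9063 and 8379 in wild-type and 7549 and 7481 in heterozygous libraries (log2 -0.21 ± 0.04, adjusted p = 2.35e-04). Of 43 S phase genes 2 rose and 4 fell. In undifferentiated cells 38 of the 40 genes of G2 and mitosis fell, where 14.1% of all genes fell. The effect differed between the states in 19 of the 40, each higher in neural cells relative to undifferentiated ones, as in 8.76% of all genes.

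Of 39 genes of oxidative phosphorylation 9 rose and 0 fell (median log2 0.13). That is 23.1% called, near the 21.3% of all genes, of which 9.56% rose and 11.7% fell. NDUFB5, a subunit of respiratory complex I, was 694 and 582 in wild-type and 791 and 796 in heterozygous libraries (log2 0.32 ± 0.07, adjusted p = 0.00196), and COX4I1 of cytochrome oxidase was 2949 and 2687 in wild-type and 3285 and 3200.1 in heterozygous libraries (log2 0.20 ± 0.05, adjusted p = 0.00232); without the second wild-type library their adjusted p was 0.0813 and 0.069. In undifferentiated cells 0 rose and 12 fell (30.8% called, against 25.4% of all genes). Between the states 16 of the 39 differed in the direction of higher in neural cells, as did 8.76% of all genes. Of 29 cholesterol synthesis genes 7 rose and 3 fell, but 3 and 2 without the second heterozygous library. TM7SF2, a sterol reductase, was 1182 and 1112 in wild-type and 1398 and 1498 in heterozygous libraries (log2 0.34 ± 0.06, adjusted p = 4.26e-04). STARD4, a sterol carrier, went down (log2 -0.41 ± 0.05, adjusted p = 9.69e-07). In all 34.5% of the cholesterol synthesis genes were called.

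Targets of p53 were called in neural cells at about the rate of all genes. Of 44 measured, 3 rose and 6 fell, and 1 rose and 6 fell without the second heterozygous library. CDKN1A, the cyclin kinase inhibitor p21, was 631 and 547 in wild-type and 694 and 763 in heterozygous libraries (log2 0.31 ± 0.08, adjusted p = 0.00454), with adjusted p from 0.000788 to 0.111 when 1 neural library was left out. TP53I3 rose (log2 0.53 ± 0.06, adjusted p = 1.25e-06) and PLK2, a polo-like kinase, fell (log2 -0.62 ± 0.08, adjusted p = 2.67e-06). With FT671, 35 of these 44 genes rose and 2 fell, where 33% of all genes tested rose, and in the double knockout 24 rose and 9 fell, where 30.7% rose. In undifferentiated heterozygotes 3 of the 44 rose and 17 fell (45.5% called, against 25.4% of all genes). CDKN1A was lower there (log2 -0.28 ± 0.08, adjusted p = 0.00939). Its difference between the states was called (log2 0.58 ± 0.11, adjusted p = 4.61e-04).

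Signalling and regulatory genes gave both directions. Of 47 WNT, NOTCH and BMP genes 12 rose and 12 fell (51.1% called). DLL3, a NOTCH ligand, was 392 and 350.1 in wild-type and 1121 and 1022 in heterozygous libraries (log2 1.53 ± 0.07, adjusted p = 2.18e-13). WNT5A was 171 and 209 in wild-type and 464 and 459.5 in heterozygous libraries (log2 1.28 ± 0.14, adjusted p = 1.41e-07). ID1, an inhibitor of helix-loop-helix factors, was 188 and 194 in wild-type and 85.8 and 93.8 in heterozygous libraries (log2 -1.08 ± 0.06, adjusted p = 5.91e-12). Of 33 developmental transcription factors 4 rose and 9 fell (39.4% called). Among them was MYT1L, a neuronal zinc finger factor, at 293 and 289 in wild-type and 92.8 and 94.8 in heterozygous libraries (log2 -1.62 ± 0.12, adjusted p = 5.11e-10). Without the second heterozygous library 4 of these factors rose and 5 fell. Of 25 immediate early genes 6 rose and 12 fell (72% called). MYC was 82.8 and 90.0 in wild-type and 33.9 and 32.9 in heterozygous libraries (log2 -1.34 ± 0.10, adjusted p = 2.33e-10). Interferon response genes had 4 of 24 higher and 4 lower (33.3% called), and stress genes 1 of 33 higher and 4 lower (15.2% called). Of 33 ribosome biogenesis genes 7 fell (21.2% called), and of 44 ubiquitin-specific proteases 1 rose and 4 fell (11.4% called). Of 31 other Polycomb subunits 5 fell (16.1% called). Over all genes 21.3% were called, so stress, ribosome biogenesis, protease and Polycomb genes did not exceed that share. Without the second heterozygous library 1 protease rose and 0 fell, and 1 Polycomb subunit rose and 3 fell.

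**Figure D3:**
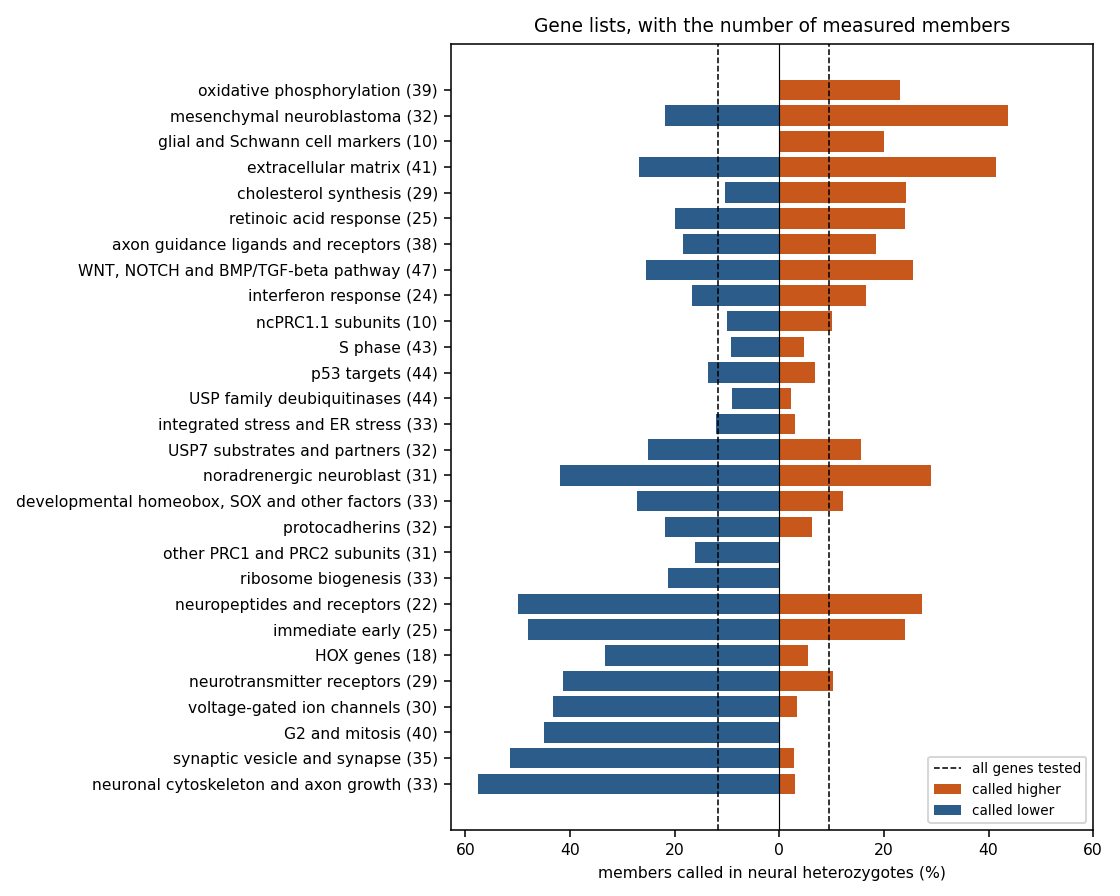
Share of measured members (percent, horizontal axis) called higher (right) or lower (left) in neural heterozygotes for lists with at least 10 measured members; dashed lines give all genes tested, 9.56% higher and 11.7% lower. Cytoskeletal and synaptic lists reach farthest left, with 19 of 33 and 18 of 35 members lower.

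The difference between genotypes was not the same in neural and undifferentiated cells for 2400 genes (16.2% of 14820). It was higher for 1298 (8.76%) and lower for 1102 (7.44%) in neural cells relative to undifferentiated ones. In undifferentiated cells 3768 genes (25.4%) were called, 1684 higher and 2084 lower. Both states called 1143 genes in the same direction and 280 in opposite directions. SPOCK1, a matrix proteoglycan, was 2455 and 2579.9 in wild-type and 2144 and 1814 in heterozygous libraries in neural cells (log2 -0.35 ± 0.06, adjusted p = 2.54e-04). In undifferentiated cells SPOCK1 was 293 and 292 in wild-type and 1261 and 1323 in heterozygous libraries (log2 2.14 ± 0.06, adjusted p = 3.32e-17), so it was lower with heterozygosity in the neural state and higher in the other. RUNX1T1, a transcriptional corepressor, went the other way. It was 1127 and 1218 in wild-type and 1709.7 and 1609 in heterozygous libraries in neural cells (log2 0.50 ± 0.10, adjusted p = 4.32e-04). Undifferentiated RUNX1T1 was 113 and 101 in wild-type and 29.3 and 26.1 in heterozygous libraries (log2 -1.92 ± 0.10, adjusted p = 4.29e-13).

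**Figure D4:**
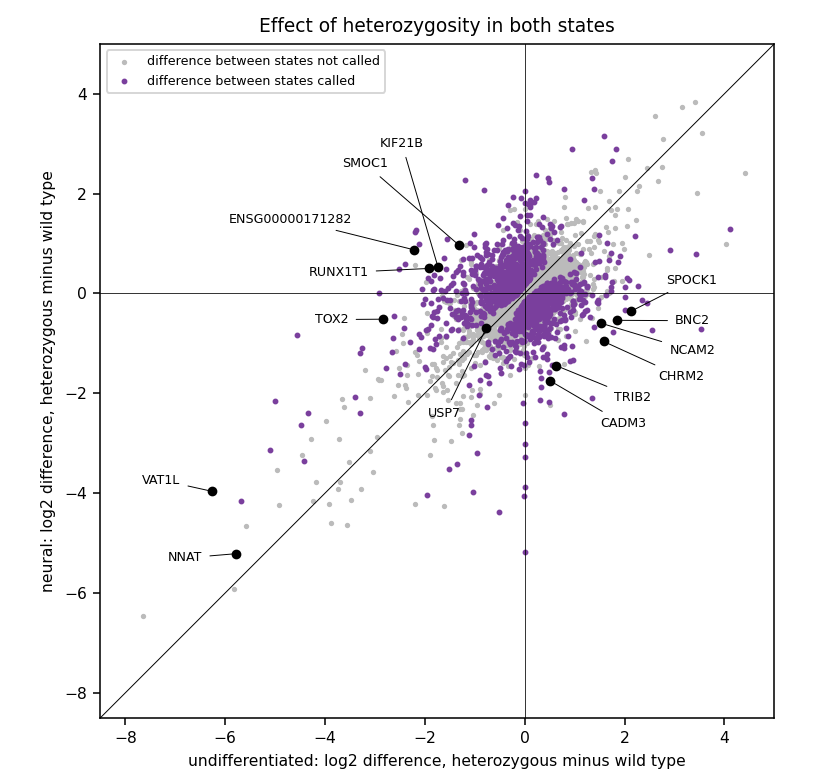
Log2 difference of heterozygous minus wild type in undifferentiated (horizontal) and neural cells (vertical), 1 point per gene, purple where the difference between the states was called. NNAT fell in both states, by -5.21 in neural and -5.79 in undifferentiated cells, and its difference between the states was called. SPOCK1 and RUNX1T1 lie on opposite sides of 0 in the 2 states.

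Heterozygous calls were set beside knockout and inhibition of USP7 in neural cells, which come from separate libraries. Of 1375 genes higher in heterozygotes and measured in both, 785 (57.1%) were also higher in the double knockout, or 18.9% of its list, and 226 were lower, where 29.7% of all genes were higher. Of 1690 lower genes 1086 (64.3%) were lower there, or 22.6% of its list, and 304 higher, where 34.4% of all genes were lower. With FT671, 814 (59.2%) of the higher genes were higher, or 18.5% of its list, and 187 lower, where 31.5% of all genes were higher. Of the lower genes 944 (55.9%) were lower with FT671, or 19.9% of its list, and 386 higher, where 34.0% of all genes were lower. The double knockout called 63.7% and FT671 65.1% of genes tested.

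NNAT, CUX2, BASP1, CPLX2, PHACTR1 and ENPP2 fell in all 3 comparisons. NNAT fell by log2 3.21 in the double knockout and 2.67 with FT671. CPLX2 fell by 7.34 and 3.15, beside 1.83 in heterozygotes. LPP, COL5A1, IL17RA, NGFR, IGFBP6 and KIRREL1 rose in all 3, with COL5A1 at 4.75 ± 0.10 and 4.57 ± 0.10. Other genes did not follow: INSM1, higher in heterozygotes, fell in the double knockout by 1.29 and with FT671 by 1.81. Both COL4A1 and COL4A2, lower in heterozygotes, rose in both others. COL4A1 rose by 1.75 ± 0.09 and 2.94 ± 0.09.

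**Figure D5:**
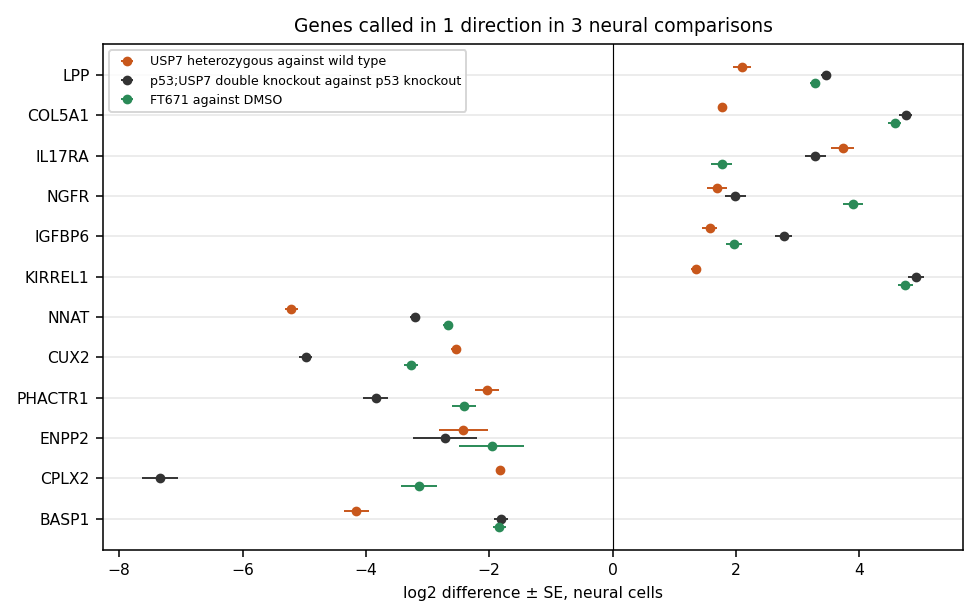
Log2 difference ± SE (horizontal axis) of the 12 genes called in 1 direction in 3 neural comparisons, chosen by the smallest of the 3 changes. The genes rise or fall in all 3 by the choice of genes, and NNAT is lowest in heterozygotes at -5.21.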

How the data were processed

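The deposited signal of a gene is, as worked out from the values, its read count divided by a size factor of the library, plus 1. Per the submitters' processing notes, reads were aligned to hg19 with STAR, counted with HTSeq and processed with DESeq2, with no versions given. After 1 was subtracted, every value of the 38 libraries was a whole multiple of the library's step within 0.01 reads, which gave back the counts. Depth was 16149022 to 17946790 reads and size factors 0.9217 to 1.0449. Because the unit was normalized, limma was the planned test and edgeR an alternative.

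The 14820 genes averaging 5 or more over the 8 libraries of the heterozygote set entered limma 3.58.1 in R 4.3.3 (trend and robust options). Values were log2(normalized count + 1), with 1 mean per group over all 4 groups. The other set (15351 genes) was fitted apart. The added 1 pulls folds of low genes towards 0. The fit was tested on simulated data. Replicate numbers in the headers of the heterozygote columns are not those of the sample titles; each column was given a group and no sample, and first and second follow column order. The 6 columns that matched no sample were not used. Of 14820 gene IDs 13902 had a symbol in the file, 565 were named from GENCODE v29 and 353 were not named. The members and gene lists were chosen with earlier results of these data known.

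Named genes are USP7, the 12 largest called changes per direction (mean level 100 or more, groups not overlapping), up to 4 members of each list in order of adjusted p, the 6 largest differences between states per direction, the 6 per direction shared with USP7 loss and FT671, and cell type markers; some were left out for length. MDM2, PCGF1, CDKN1A and the transcripts MBP, MOBP and PTGDS were singled out after their values were seen. The alternatives tried were 0.5 or 5 as the added value, no filter and a mean of 50, the compared groups alone, TMM rescaling, edgeR 4.0.16 and DESeq2 1.42.0 on the recovered counts, and each library left out. Counts of lists without the second heterozygous neural library were added after the data were seen. A few results are not reported here.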

Additional observations from a re-analysis of the deposited data

Results flagged for a closer look

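The difference between genotypes was not the same in neural and undifferentiated cells, by the test of that contrast itself, for 2400 genes. Of the 12 genes with the largest such differences, 6 were higher in neural cells relative to undifferentiated ones. The log2 differences between the states were 3.10 for the unnamed ENSG00000171282, 2.42 for RUNX1T1, 2.33 for TOX2, 2.30 for VAT1L, 2.29 for SMOC1 and 2.26 for KIF21B. VAT1L fell in both states, by less in neural cells. The neural fall of TOX2 lost its call in each of the 4 fits without 1 neural library (adjusted p 0.0875 to 0.243). The other 6 were lower, with -2.54 for CHRM2, -2.49 for SPOCK1, -2.39 for BNC2, -2.25 for CADM3, -2.13 for NCAM2 and -2.07 for TRIB2. CADM3 and SMOC1 had at most 3.10 normalized counts in every undifferentiated library, so these differences depend on the added 1. The neural call of SMOC1 was lost with an added value of 0.5 (adjusted p = 0.324), and that of CADM3 without the first heterozygous neural library (adjusted p = 0.0536).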

How the results depend on the processing

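DESeq2 on the recovered reads called 2029 genes in neural cells, 2172 in undifferentiated cells and 1202 for the difference between the states, against 3151, 3768 and 2400; the cause was not tested. With 1 library left out, calls ranged from 1947 (without the first heterozygous neural library) to 2895 in neural cells, from 2449 (without the first wild-type one) to 2740 in undifferentiated cells, and from 1538 (without the first heterozygous neural library) to 2585 for the difference between the states. The USP7 difference ran from -0.70 to -0.67 in neural and from -0.77 to -0.76 in undifferentiated cells. The other alternatives moved no main count by over 1.5 times, and without a filter the same 14820 genes of the heterozygote table were tested. Of 155 called genes, named by rule or singled out after their values were seen, 36 lost the call under at least 1 alternative and none changed sign. Among 16 that were not called, 5 gained a call under some alternative (CYP26B1, NTRK2, FAP, GATA3 and S100B). With 1 neural library left out, the log2 difference of 7 uncalled genes took both signs, from -0.88 to 3.27 for GFAP, -0.14 to 1.36 for S100B, -0.81 to 0.11 for CD14, -0.0076 to 0.059 for PCGF1, -0.040 to 0.19 for RNF2, -0.11 to 0.46 for SNRPN and -0.069 to 0.0058 for MDM2. With 2 libraries a group, small changes can be missed. No paired analysis was possible because column headers and titles number the libraries differently, and the groups compared share only 1 number.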

Other observations

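Imprinted genes, which are expressed from 1 parental copy, stood among the changes at both ends. This list of 16 genes was drawn up after H19, NNAT, DLK1 and IGF2 had been seen, so it carries no test. Of 10 measured, 7 rose, 1 fell and 2 were not called, and the median log2 difference was 0.52. Over all genes 9.56% were higher and 11.7% lower, but the choice of the list after seeing its members favours called ones. IGF2, a fetal growth factor beside H19, was 35575 and 46881 in wild-type and 82771 and 110178 in heterozygous libraries (log2 1.23 ± 0.22, adjusted p = 0.0266), and its adjusted p ran from 0.0506 to 0.0929 when 1 neural library was left out. PEG10, derived from a retrotransposon, was 3472 and 3474 in wild-type and 4996 and 4969 in heterozygous libraries (log2 0.52 ± 0.04, adjusted p = 4.44e-10). PLAGL1, a zinc finger factor, was 600.0 and 578 in wild-type and 769 and 764 in heterozygous libraries (log2 0.38 ± 0.08, adjusted p = 7.82e-04). CDKN1C, a cyclin kinase inhibitor, and MEST were also higher, but each call was lost in some fits without 1 library (highest adjusted p 0.0953 and 0.0804). PEG3 and SNRPN were not called (adjusted p = 0.154 and 0.611). Levels of some of these genes also varied between wild-type groups. In the other set, normalized apart, CDKN1C was 343, 686 and 442 in neural wild-type libraries with DMSO and 215, 226 and 213 in untreated ones. IGF2 was 56115, 71553 and 44107 in those with DMSO. Mean IGF2 of undifferentiated wild-type cells was 17232 in the heterozygote set and 1052 in the other.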
